A study of Sus scrofa with 6 samples.

Results

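The 10 genes described here serve mucosal defence in the gut. LYZ, SLPI, DMBT1, REG3G and LCN2 encode secreted antimicrobial proteins. DUOX2, its maturation factor DUOXA2, NOS2 and CYBB encode enzymes, or their partner, that make reactive oxygen or nitric oxide, and NOD2 encodes an intracellular sensor of bacterial wall fragments. They were taken by name out of 20648 genes in the files, and the set was proposed with earlier results of these data known. Of the 10 genes, 9 have a row under their own symbol. CYBB was read from the row GP91-PHOX, for which the RefSeq gene table of Sscrofa11.1 gives CYBB and NOX2 as synonyms.

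The samples were single cells of ileal mucosa from male piglets at birth (day 0) and at 1, 3, 7, 14 and 21 days of age, measured by droplet single-cell RNA-seq. All piglets came from Large White sows and suckled, and no group was treated. The methods name 5 piglets per age, but each age has 1 library, so animals cannot be separated and no difference between ages could be tested. The cells were released from scraped mucosa with EDTA and a short enzyme digestion. The series text speaks of cecum, while the sample labels give ileum.

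At birth the gut moves within hours from a largely sterile setting to milk, bacteria and dietary antigens. Epithelial cells answer microbes by secreting lectins, protease inhibitors and scavenger proteins into the mucus and by making hydrogen peroxide and nitric oxide at their surface. Neutrophils and macrophages carry lysozyme and lipocalin and make superoxide in an oxidase whose catalytic subunit is CYBB. B cells also carry that oxidase.

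Barcodes with at least 1000 UMIs (unique molecular identifiers, each a counted RNA molecule) and at least 500 genes were taken as cells. This left 76099 cells, from 10836 to 15956 per library, with a median of 3693 to 4560 UMIs per cell. Cells were placed in gates by summed marker UMIs. The epithelial gate (EPCAM, KRT8 and VIL1, at least 5 UMIs) held 4486 cells or 5.89%, the myeloid gate (CST3 and AIF1, at least 10) 1507 or 1.98%, the B gate (MS4A1 and PAX5, at least 2) 47055 or 61.8% and the T gate (CD3E and CD3G, at least 2) 5615 or 7.38%. No gate took 18611 cells, and 1140 cells (1.5%) passed more than 1. The epithelial gate held 2976, 1114, 103, 256, 36 and 1 cells from day 0 to day 21, and the myeloid gate 395, 816, 197, 25, 70 and 4. No ratio was counted from gates with under 50 cells. Where such a value, or that of a small subset, is set beside another age, the number of cells is given. The 7 epithelial markers in the files summed to between 29.8 and 51.5 UMIs per 10000 in the epithelial gate on days 0 to 7. In the myeloid gate they summed to 27.6, 12.5 and 1.21 on days 0, 1 and 3, in the T gate of day 0 to 10.5, in the B gate of day 0 to 9.46 and in free RNA of day 0 to 23.4, so the gates were least separate on day 0. Any 2 libraries shared between 31 and 68 cell barcodes.

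Levels are UMIs of a gene per 10000 UMIs summed over the cells of a gate, with exact Poisson 95% intervals that cover counting error only. Ratios between ages or gates were counted as past 2-fold, in either direction, among genes with at least 10 UMIs over both sides. The same count over all genes is the background. With 1 library per age, these counts describe the libraries and carry no p-value. Consecutive comparisons share a library. Barcodes with at most 100 UMIs were summed as a measure of free RNA, whose part in the results was not tested beyond the values given.

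The genes differed in where their UMIs lay. REG3G, DMBT1 and SLPI lay in epithelial cells, which held 95% of 100178 REG3G UMIs, 91.9% of 14803 DMBT1 UMIs and 92.1% of 19897 SLPI UMIs over the series. On day 3 the epithelial shares were lower, at 54% of 174 REG3G UMIs, 75.2% of 105 DMBT1 UMIs and 16.2% of 222 SLPI UMIs, with 58.1% of SLPI in cells of no gate. The 27 REG3G UMIs of day 21 lay 92.6% in the B gate. The myeloid gate held 64.4% of 13628 LYZ UMIs and 42.2% of 954 LCN2 UMIs, and cells of no gate 25.7% and 26.9%. The myeloid part of LCN2 came from day 1, with 55.5% of that day's UMIs against at most 3.03% on any other day. The B gate held 92.3% of 46077 CYBB UMIs over the series, but 44.8% on day 0 and 39.2% on day 1, when the myeloid gate held 26.4% and 36.2%. B cells numbered 1570 on day 0 and 14029 on day 14, so shares of UMIs also follow cell numbers. NOS2 was split between epithelial cells, with 49.9% of 950 UMIs, and cells of no gate, with 34%. DUOX2 with 251 UMIs, DUOXA2 with 311 and NOD2 with 105 were rare everywhere.

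**Figure D1:**
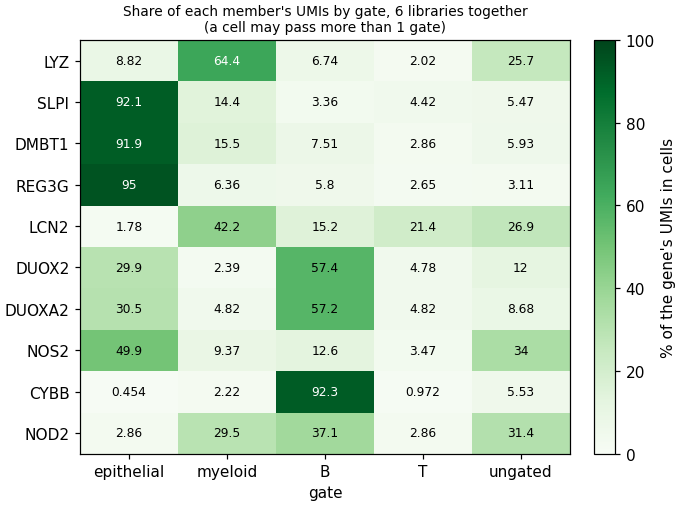
Share of each gene's UMIs, in percent, that lay in the epithelial, myeloid, B and T gates and in cells of no gate, over all 6 libraries, with colour for the share. REG3G, SLPI and DMBT1 are over 90% epithelial and CYBB is 92.3% in the B gate, while LYZ, LCN2, NOS2 and NOD2 are spread over several gates.

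REG3G, a C-type lectin that binds the wall of Gram-positive bacteria, lies at chr3:64847629-64850365 (Sscrofa11.1). In the epithelial gate its level was 0.859 at birth (95% interval 0.832 to 0.886), 29.9 at 1 day of age (29.7 to 30.2), 0.943 at 3 days (0.762 to 1.15) and 104 at 7 days (102 to 105). Day 7 was thus the highest of the ages with at least 50 cells, day 1 the next, and the intervals of days 0 and 3 overlapped. The fold was 34.9 from day 0 to day 1, 31.8 down from day 1 to day 3 and 110 up from day 3 to day 7. The 36 epithelial cells of day 14 gave 218. REG3G UMIs were seen in 7.93% (236 cells), 62.7% (698), 6.80% (7) and 43.0% (110) of epithelial cells on days 0, 1, 3 and 7. With every cell thinned to 1000 UMIs, the shares were 3.09%, 39.3%, 3.88% and 35.5%. By either share days 1 and 7 were far above days 0 and 3, while the order within each of these pairs did not follow the levels in both forms. The gene was concentrated in few cells on day 0, when 10 cells held 42.4% of its epithelial UMIs, against 12.2% on day 1. On day 3 all 94 UMIs lay in 7 cells and 90 of them in 4 crypt cells, so the level of day 3 and the steps before and after it rest on those cells. In B cells, which should lack the gene, the unthinned shares were 1.21%, 12.6%, 0.403% and 5.64% and the thinned ones 0.255%, 3.94%, 0.115% and 1.59%. The epithelial cells were deeper than the B cells, with a median of 16690 against 4194.5 UMIs on day 1. Free RNA moved along, at 0.363, 9.10, 0.0415 and 1.94 per 10000.

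DMBT1, a large scavenger glycoprotein of mucus that aggregates bacteria, lies at chr14:132154346-132231274. Its epithelial level was 0.416, 3.93, 0.792 and 10.1 on days 0, 1, 3 and 7. It followed the order of REG3G. The 79 UMIs of day 3 lay in 6 cells, and in cells of exactly 1 gate day 3 (0.289) stood below day 0 (0.348). The fold was 9.44 up, 4.96 down and 12.7 up from each age to the next. UMIs of DMBT1 were found in 16.2%, 57.8%, 5.83% and 53.5% of epithelial cells, and in 35 of the 36 cells of day 14, where the level was 38.2. These shares were not thinned, and the median depth of epithelial cells differed, at 16690 UMIs on day 1 and 5686.5 on day 7. Free RNA held 0.185, 1.33, 0.0104 and 0.185.

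SLPI, a secreted inhibitor of neutrophil elastase with antibacterial activity, lies at chr17:47595804-47598364. Of the 9 genes that could be compared in the epithelial gate between days 0 and 1, it changed least. Its epithelial level was 2.27 on day 0 and 3.32 on day 1, a fold of 1.46 that did not pass 2-fold. On day 3 it was 0.361, lower by 9.19-fold, and on day 7 it was 2.63, higher by 7.29-fold. Both levels were lower still when cells were thinned, and that of day 7 also as a mean over cells. The 36 cells of day 14 gave 5.22. SLPI was already in 43.9% of epithelial cells on day 0, and in 56.5%, 13.6% and 25.8% later. These shares were not thinned, and epithelial cells had a median of 10394.5, 16690, 8349 and 5686.5 UMIs on these days. They therefore do not compare the ages at equal depth. Over all cells SLPI had no UMI on day 21. Put at 3 UMIs, this gave a bound of 0.000474, against 0.0193 on day 14, which was at least 40.7-fold higher by that bound. The day 21 library had 1 epithelial cell, so the age and the loss of epithelial cells from the gate cannot be told apart.

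The kinds of epithelial cell also differed between libraries. Summed absorptive markers were 36.9, 89.7, 5.996 and 122 per 10000 in the epithelial gate on days 0, 1, 3 and 7, the same order of ages as DMBT1 and REG3G apart from days 0 and 3. Goblet markers were 137, 88.0, 102 and 10.1, enteroendocrine markers 24.4, 11.6, 32.4 and 27.1 and crypt markers 4.82, 14.9, 19.2 and 3.87. How much of the changes between ages came with this mixture was examined only within the subsets that follow.

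**Figure D2:**
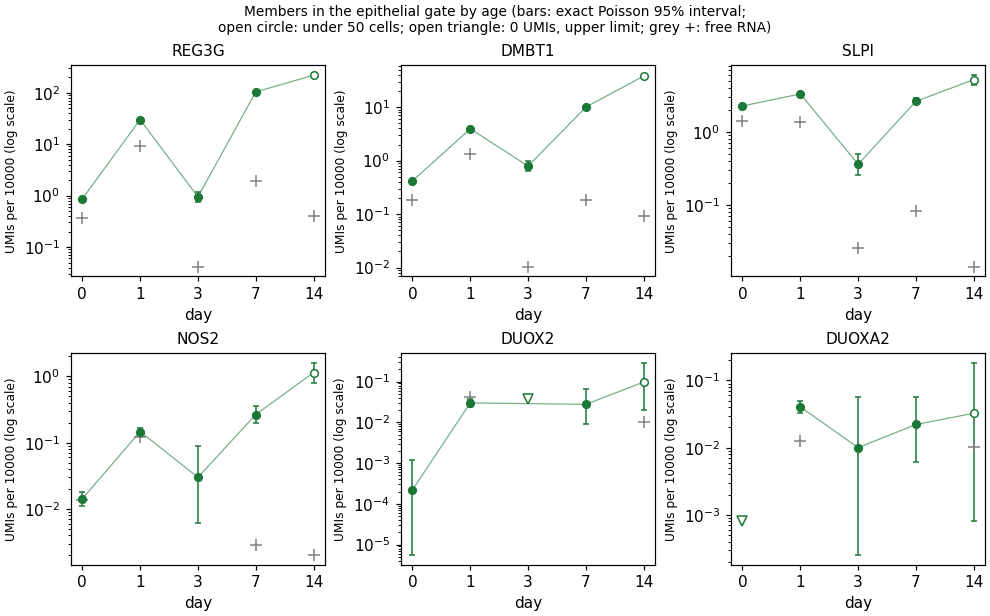
Level in the epithelial gate (UMIs per 10000, log axis) of 6 genes by age in days. Points are libraries, bars are exact Poisson 95% intervals, open circles are day 14 with 36 cells, open triangles are upper limits where no UMI was seen, and grey crosses are free RNA. REG3G and DMBT1 are high on days 1 and 7 and low on days 0 and 3.

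Splitting the epithelial gate by marker UMIs (goblet by FCGBP, CLCA1 and MUC2, enteroendocrine by CHGA and CHGB, crypt by OLFM4 and SPINK1, each at least 5 UMIs, and the rest) gave subsets of 110 to 1480 cells on days 0 and 1. REG3G was higher on day 1 in every subset. It went from 0.230 to 31.2 in goblet cells, the secretors of mucin, from 0.411 to 15.4 in enteroendocrine cells, from 0.984 to 49.9 in crypt cells and from 1.18 to 26.5 in the other epithelial cells. Free RNA of REG3G was also higher, at 9.10 against 0.363, and the other epithelial cells are a mixture, so the part of free RNA and of the cell mixture was not tested. On day 7 the 20 crypt cells gave 182 and the 226 other cells 95.9.

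On day 3 the 4 subsets had only 16 to 36 cells each, and the other epithelial cells had gone from 720 to 16. Within these few cells the fall from day 1 seen over the gate was not seen in every subset for every gene. DMBT1 had 77 of its 79 UMIs in the 16 other cells, at a level of 5.99, against 4.93 in that subset on day 1. The epithelial gate held 75.2% of all DMBT1 UMIs of day 3 and the myeloid gate 53.3%, so many lay in barcodes that passed both gates. In the crypt subset DMBT1 was at 0.0634, against 2.85 on day 1. Goblet and enteroendocrine cells had no DMBT1 UMI, against levels of 2.37 and 1.30 on day 1. SLPI had 35 of its 36 UMIs in the 26 crypt cells, at 1.11, against 0.882 on day 1. It was at 0.0396 in enteroendocrine cells, against 0.648 on day 1. Goblet and other epithelial cells had no SLPI UMI, against levels of 1.16 and 4.84 on day 1. REG3G was lower in each subset, at 2.85 in crypt, 0.0999 in goblet and 0.0396 in enteroendocrine cells, with no UMI in the other cells.

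DMBT1 was also higher on day 1 in all 4 subsets, from 0.139 to 2.37 in goblet, 0.184 to 1.30 in enteroendocrine, 0.0965 to 2.85 in crypt and 0.668 to 4.93 in other epithelial cells. SLPI did not move together. It went from 0.877 to 1.16 in goblet cells and from 3.30 to 4.84 in the other cells, but from 0.868 to 0.648 in enteroendocrine cells and from 1.69 to 0.882 in crypt cells. LYZ differed among the subsets on day 0, with 224 of 634 goblet cells (35.3%, 5.84% when thinned) holding a UMI and a level of 0.315, against 0.0164 in crypt cells. On day 1 the goblet level was 0.543 (72 of 168 cells) and the crypt level 0.0138. The enteroendocrine level of LYZ on day 1, 0.496, came from 59 UMIs in 4 cells.

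**Figure D3:**
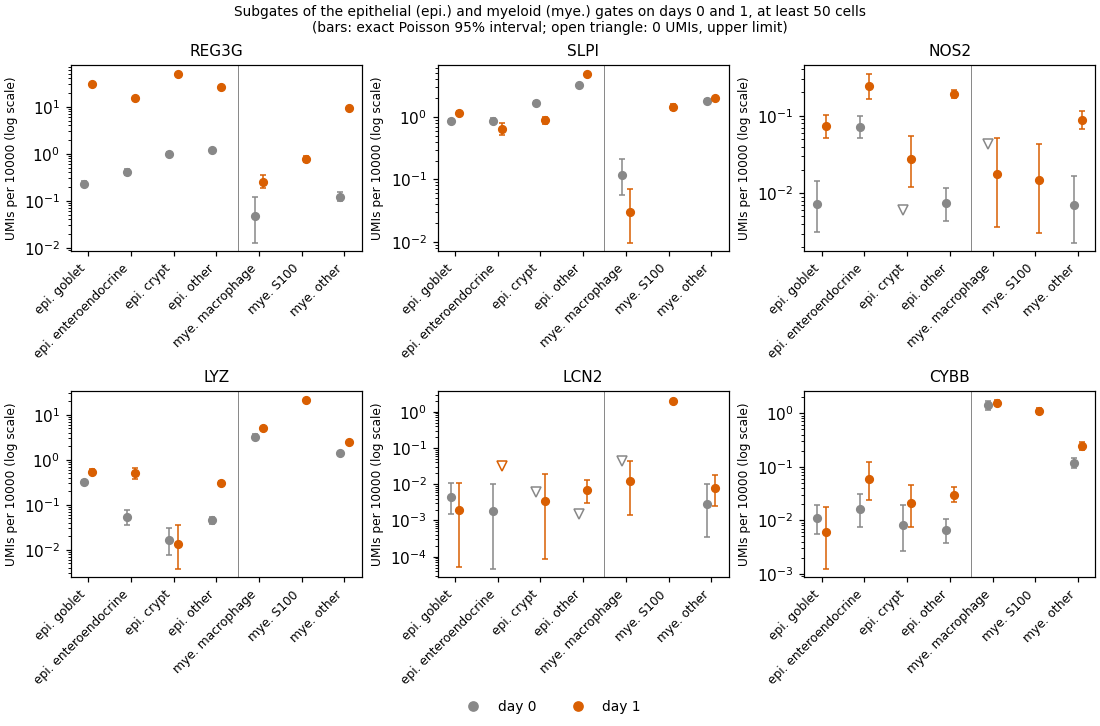
Level (UMIs per 10000, log axis) of 6 genes in 4 epithelial and 3 myeloid subsets on day 0 (grey) and day 1 (orange), with exact Poisson 95% intervals. REG3G is higher on day 1 in every epithelial subset, while among the subsets with at least 50 cells LYZ and LCN2 are highest in the S100 subset of day 1. The S100 subset of day 0 is 3 cells, with a LYZ level of 27.6.

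LYZ, the enzyme that cuts the peptidoglycan of bacterial walls, lies at chr5:33612593-33618953. Its level in the myeloid gate was 1.67 at birth (1.58 to 1.76), 6.59 at 1 day of age (6.44 to 6.76), 0.848 at 3 days (0.724 to 0.987) and 9.47 at 14 days (8.6 to 10.4). The 25 myeloid cells of day 7 gave 6.53. The myeloid level was thus high on days 1 and 14 and lowest on day 3, with a fold of 3.95 up from day 0 to day 1 and 7.78 down by day 3. Cells that also passed the epithelial gate made up 30.9%, 10.5%, 1.52% and 0% of the myeloid gate on days 0, 1, 3 and 14. In cells of exactly 1 gate the levels were 6.59, 10.9, 0.915 and 10.6, so day 3 was again lowest, days 1 and 14 were close, and the step from day 0 to day 1 stayed under 2-fold. LYZ had UMIs in 42.5%, 52%, 24.4% and 42.9% of myeloid cells.

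The myeloid gate changed in kind between days 0 and 1. Cells with at least 5 UMIs of S100A8, S100A9 and S100A12, which mark neutrophils and monocytes, and without that many of the complement genes C1QA, C1QB and C1QC, which mark macrophages, numbered 3 on day 0 and 237 on day 1. In these S100 cells of day 1 the LYZ level was 20.7, with UMIs in 229 of 237 cells (96.6%). In macrophages it went from 3.25 (100 cells) to 5.004 (160 cells) and in the remaining myeloid cells from 1.42 to 2.50. LYZ was therefore higher on day 1 in macrophages too, by less than over the gate. The 292 remaining cells of day 0 also held SLPI at 1.82 and DMBT1 at 0.754. Over the gate that day, epithelial markers summed to 27.6 and the 7 myeloid markers to 11.05, and 122 of its 395 cells also passed the epithelial gate. LYZ UMIs lay in 127 of the 292 remaining cells and CYBB UMIs in 52. How many of these remaining cells were myeloid was not tested. The summed neutrophil and monocyte markers in the myeloid gate were 0.662, 48.7, 1.30 and 13.9 on days 0, 1, 3 and 14, and the summed macrophage markers 40.3, 51.9, 4.59 and 11.13. The macrophage sum was also 14.9 and 32.5 in the epithelial gate and 13.7 and 16.3 in free RNA on days 0 and 1, so it does not measure macrophages alone. On day 3 the myeloid gate held only 6 macrophages and 3 S100 cells, with LYZ at 2.78 and 15.3. Its dendritic markers summed to 7.01 that day, against 3.04 on day 1.

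LCN2, a lipocalin that binds the bacterial iron carrier enterobactin, lies at chr1:268609975-268614651. In the myeloid gate it had 2 UMIs on day 0 and 400 on day 1 in 109 of 816 cells (13.4%), but none on day 3 and 1 on day 14. Nearly all LCN2 UMIs of that gate thus lay on day 1. The level was 0.00251 on day 0 and 0.398 on day 1, a ratio of 159 (43.7 to 1316), and on day 1 at least 26.1-fold higher than on day 3. The S100 cells held 393 of the 400 UMIs, at a level of 1.94, and the macrophages 2. The gate held 237 S100 cells on day 1, but 3 on day 0, 3 on day 3 and 6 on day 14, so other ages had few to compare. Those 6 had no LCN2 UMI, while 30 S100 cells of day 14 that passed no gate had a level of 1.69 from 18 UMIs. Of myeloid cells with a LYZ UMI on day 1, 24.5% had LCN2 (104 of 424 cells, median 8577 UMIs), against 1.28% of those without (median 8864.5). In the epithelial gate LCN2 had 6 UMIs on day 0, 11 on day 1 and none on days 3 and 7.

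T-gated cells had LCN2 UMIs as well, 43, 123, 24 and 10 on days 0, 1, 3 and 7. The T level was 0.0406, 0.127, 0.0929 and 0.0261, and in cells of exactly 1 gate 0.0552, 0.116, 0.091 and 0.0312. On day 0 the T gate held 56.6% of all LCN2 UMIs. The share of T cells with a UMI was 1.90%, 5.27%, 5.20% and 1.52%, and free RNA held 0, 0.0404, 0.0208 and 0.00571. On all 4 days the T level was above that of free RNA.

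**Figure D4:**
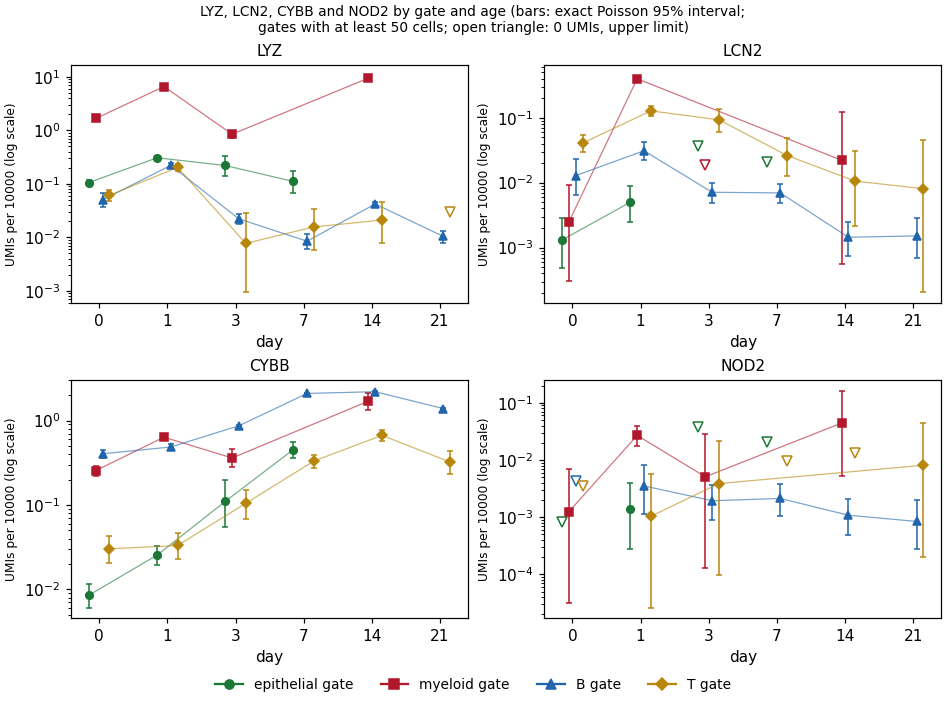
Level (UMIs per 10000, log axis) of LYZ, LCN2, CYBB and NOD2 in 4 gates by age in days, with exact Poisson 95% intervals. LYZ is highest in the myeloid gate at every age compared, LCN2 peaks in the myeloid gate on day 1, and CYBB in the B gate reaches 2.10 on day 7.

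CYBB, the catalytic subunit of the phagocyte NADPH oxidase, lies at chrX:33654656-33678346. In the B gate its level was 0.405, 0.487, 0.869, 2.10, 2.20 and 1.39 from day 0 to day 21. UMIs were found in 17.4%, 21.2%, 34.3%, 54.0%, 57.2% and 40.6% of B cells, and after thinning in 5.03%, 4.83%, 8.91%, 17.8%, 18.8% and 12.98%. The B level was thus lowest on days 0 and 1 and highest on days 7 and 14. The step from day 3 to day 7, 2.42-fold, passed 2-fold, while those from day 0 to day 1 and from day 7 to day 14 did not. Free RNA held 0.0753, 0.134, 0.457, 0.982, 1.13 and 0.821, and T cells of exactly 1 gate between 0.0126 and 0.0554.

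In the myeloid gate CYBB was at 0.256, 0.636 and 0.361 on days 0, 1 and 3 and at 1.70 on day 14. The ratio of day 1 to day 0 was 2.49. In myeloid cells of exactly 1 gate the level was 1.04 on both day 0 and day 1, so that step was not seen there. Macrophages had 1.41 and 1.58 and the S100 cells of day 1 had 1.09. The epithelial level was 0.00854, 0.0255, 0.110 and 0.454 on days 0, 1, 3 and 7, and 0.00421, 0.0140, 0.0502 and 0.0811 in cells of exactly 1 gate. Part of the epithelial CYBB signal thus lay in barcodes that passed another gate.

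DUOX2, the epithelial oxidase that makes hydrogen peroxide at the cell surface, and DUOXA2, which brings it there, are neighbours at chr1:126620468-126641406 and chr1:126616631-126620359, with 109 bases from the end of one to the start of the other. Whether their reads could be shared was not tested. In the epithelial gate DUOX2 had 1, 66, 0 and 5 UMIs on days 0, 1, 3 and 7, those of day 1 in 33 cells (2.96%). DUOXA2 had 0, 89, 1 and 4, those of day 1 in 31 cells (2.78%). On day 1 the level was 0.0300 for DUOX2 and 0.0405 for DUOXA2. The level on day 7 was 0.0277 and 0.0222, and the 0 DUOX2 UMIs of day 3, put at 3 UMIs, gave a bound of 0.0301. Days 1, 3 and 7 thus could not be told apart by level at this depth for DUOX2. The day 1 ratio to day 0 was 137 for DUOX2 (23.8 to 5497), and DUOXA2 was at least 61.6-fold higher. In free RNA of day 1, DUOX2 stood at 0.0425, above its epithelial level, and DUOXA2 at 0.0128, below it.

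On day 1, 13 of the 33 epithelial cells with DUOX2 also had DUOXA2, 39.4% (exact 95% interval 22.9% to 57.9%, median 14563 UMIs). Among cells without DUOX2 it was 1.67% (0.990% to 2.62%, median 16732 UMIs). The 2 genes were thus found together in the same cells, at like depth. All subsets contributed on day 1, with 21 DUOX2 UMIs in goblet, 13 in crypt, 3 in enteroendocrine and 32 in other epithelial cells, where a goblet cell can also be an enteroendocrine one.

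At later ages B cells, by then most of the cells, held most of the few UMIs of both genes. The B gate held 0, 4, 4, 17, 67 and 52 DUOX2 UMIs and 0, 2, 11, 20, 91 and 54 DUOXA2 UMIs from day 0 to day 21. On day 14 it held 93.1% of DUOX2 UMIs and 97.8% of DUOXA2 UMIs, against 73.3% and 80.2% in epithelial cells on day 1. The B level on day 14 was 0.00806 for DUOX2 (64 of 14029 cells) and 0.0109 for DUOXA2 (89 cells), 2.46-fold and 2.84-fold above day 7. In cells of exactly 1 gate it was 0.00797 and 0.0110. By level the epithelial gate stood above the B gate on day 7 for both genes, and the 36 epithelial cells of day 14 gave 0.0978 from 3 DUOX2 UMIs. Of B cells with DUOX2 on day 14, 2 of 64 also had DUOXA2 (3.13%, median 6036 UMIs), against 0.623% of those without (median 4816).

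NOS2, the inducible nitric oxide synthase, lies at chr12:44174944-44219875. Its epithelial level was 0.0142 (65 UMIs), 0.147 (323 UMIs), 0.0301 (3 UMIs) and 0.266 (48 UMIs) on days 0, 1, 3 and 7. It was thus higher on day 1 than on day 0, by 10.3-fold, and the ratio of day 7 to day 3 was 8.84 (2.85 to 44.4). In cells of exactly 1 gate the level of day 7 was 0.162 (20 UMIs) and that of day 3 was 0.0377 (3 UMIs). On day 7, 10 cells held 75% of the NOS2 UMIs. On day 0 the enteroendocrine subset had the highest level, 0.0722, against 0.00722 in goblet cells and none in crypt cells. On day 1 the subsets had 0.244, 0.0736 and 0.0277, and the other epithelial cells 0.192, up from 0.00745. Free RNA held 0.0137 on day 0 and 0.121 on day 1, near the epithelial level on both days. Cells of no gate held 256 UMIs on day 1, at 0.124.

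NOD2, which senses muramyl dipeptide inside the cell, lies at chr6:34132127-34167446. Of its 105 UMIs the B gate held 37.1%, cells of no gate 31.4% and the myeloid gate 29.5%. On day 1 the myeloid gate held 49.1% of 55 UMIs, with 27 UMIs in 27 of 816 cells (3.31%) and a level of 0.0269 against 0.00352 in B cells. On days 0, 3 and 14 it had 1, 1 and 2 UMIs. The myeloid ratio of day 1 to day 0 was 21.5 (3.54 to 879). The S100 cells held 15 of the 27 UMIs and the macrophages 5. Epithelial cells had 3 NOD2 UMIs on day 1 and none on days 0, 3 and 7, where the 0 UMIs of day 0, put at 3 UMIs, gave a bound of 0.000657.

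Most of the set was higher on day 1 than at birth. From day 0 to day 1, 9 of 10 genes over all cells were past 2-fold, all higher, against 15.5% of all genes in either direction, and the median log2 ratio was 3.13 against -0.0118 for all genes. SLPI was the exception, 1.23-fold lower. In the epithelial gate 8 of 9 genes were past 2-fold, all higher, against 14.5% of all genes, with a median of 3.24 against 0.0322. LYZ stayed under 2-fold there in cells of exactly 1 gate, and LCN2 rested on few UMIs. Over the 3 epithelial steps 14 ratios were higher past 2-fold, but 11 with cells of exactly 1 gate and 8 with thinned cells. In the myeloid gate 8 of 9 were higher, against 20.3%, with a median of 3.3 against -0.104. Over the myeloid gate's steps from day 0 to day 1 and from day 1 to day 3, 8 ratios were higher past 2-fold, but 5 with cells of exactly 1 gate, 4 with doubled gate thresholds and 3 with thinned cells. LYZ and CYBB were not past 2-fold between days 0 and 1 in cells of exactly 1 gate, and myeloid DMBT1 changed sign when thinned. Myeloid REG3G, SLPI and DMBT1 have to be read with the epithelial cells in that gate. REG3G there was 0.114 and 6.25, but 0.0111 and 0.184 in cells of exactly 1 gate, and DMBT1 was 0.679 and 1.47, but 0.0166 and 0.0289. SLPI was 1.63 and 1.55, but 0.0221 and 0.296.

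**Figure D5:**
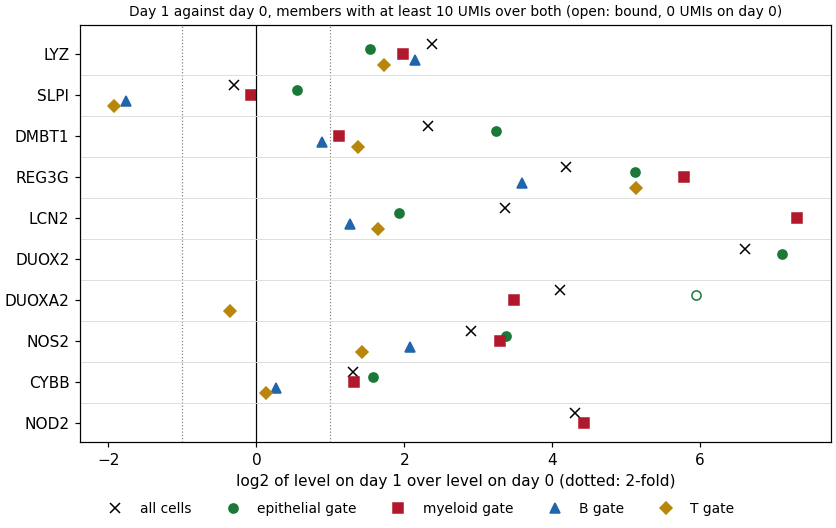
Log2 ratio of the level on day 1 to that on day 0 for each gene in each gate, with dotted lines at 2-fold and open symbols where a group had no UMI and the ratio is a bound. Most ratios in the epithelial and myeloid gates lie past 2-fold toward day 1, and those of SLPI lie inside the dotted lines in both.

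From day 1 to day 3 the direction turned. All 10 genes were past 2-fold over all cells, against 35.9% of all genes, with CYBB higher and the other 9 lower. REG3G was 373-fold lower, DMBT1 83.3-fold and SLPI 34.5-fold over all cells, where the epithelial cells also went from 1114 to 103. Within the epithelial gate 6 of 7 were past 2-fold, against 35.5%, with CYBB higher and 5 lower. In the myeloid gate 6 of 8 were lower, against 31.5%. From day 3 to day 7, 6 of 10 genes over all cells were higher, against 23.2%, and 5 of 6 in the epithelial gate, against 31%. CYBB, counted among those 5, stayed under 2-fold in cells of exactly 1 gate. From day 7 to day 14, 1 gene was higher (DUOXA2) and 4 lower of 10 (REG3G, DMBT1, SLPI and LCN2), against 21.8%. Epithelial cells went from 256 to 36 at this step. The 36 cells of day 14 gave levels of 218, 38.2 and 5.22 for REG3G, DMBT1 and SLPI. These lay above the levels of day 7 but came from too few cells for a counted ratio. From day 14 to day 21, 7 of 10 were lower, against 13.2%. For REG3G, DMBT1 and SLPI, between 92.5% and 96.1% of the day 14 UMIs lay in 36 epithelial cells, and day 21 had 1 such cell, which also touches the comparison with day 0. NOD2 had 16 and 5 UMIs, with a fold interval of 0.79 to 7.88. Between days 0 and 21, 9 of 9 genes were past 2-fold, against 57.1% of all genes, with DUOX2, DUOXA2 and CYBB higher and 6 lower.

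The lymphocyte gates hold few UMIs of most of the genes. In the B gate the genes past 2-fold were 5 of 7 from day 0 to day 1 (16.2% of all genes), 6 of 9 to day 3 (26.1%), 6 of 10 to day 7 (16.9%), 7 of 10 to day 14 (18%) and 4 of 10 to day 21 (10.3%). In the T gate they were 6 of 8 (17.6%), 6 of 8 (27.9%), 3 of 3 (14.4%), 4 of 5 (9.41%) and 3 of 3 (9.69%). These counts include barcodes that also passed the epithelial gate. REG3G in the B gate of day 1 was 1.36, and 0.305 in cells of exactly 1 gate. In the T gate it was 2.58 and 0.368.

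Of the genes compared between gates on days 0, 1 and 3, LYZ and CYBB stood lower in epithelial than in myeloid cells on all 3 days. LYZ was lower by 15.7-fold on day 0, 21.4-fold on day 1 and 3.84-fold on day 3, and CYBB by 29.9-fold, 25-fold and 3.27-fold. In cells of exactly 1 gate the gaps were wider on days 0 and 1, with LYZ at 0.0991 and 0.175 in epithelial against 6.59 and 10.9 in myeloid cells, and CYBB at 0.00421 and 0.0140 against 1.04 on both days. REG3G was higher in epithelial cells by 7.53-fold, 4.79-fold and 92.8-fold, the last against 2 myeloid UMIs. The myeloid value includes epithelial barcodes, and in cells of exactly 1 gate REG3G was 1.04 in epithelial against 0.0111 in myeloid cells on day 0 and 34.2 against 0.184 on day 1. On day 1 LCN2 was 79.6-fold lower in epithelial than in myeloid cells, and NOD2 19.7-fold lower (6.06 to 101). The genes past 2-fold between these gates were 4 of 6 (15.9% of all genes), 10 of 10 (29.6%) and 5 of 6 (37.5%) on days 0, 1 and 3.

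Against B cells, the epithelial gate had 7 of 7 genes past 2-fold on day 0 (38.9% of all genes), 8 of 9 on day 1 (51%), 7 of 7 on day 3 (44%) and 8 of 8 on day 7 (48.5%). CYBB was lower in epithelial cells on each of these days, by 47.4-fold on day 0 and 4.62-fold on day 7, and REG3G was higher by 7.65-fold and 235-fold. Against T cells the counts were 5 of 7 (38.2%), 7 of 9 (48.8%), 5 of 6 (38.5%) and 5 of 7 (46.3%). The myeloid gate had 4 of 6 past 2-fold against B cells on day 0 (31.8%), 8 of 9 on day 1 (39.9%), 5 of 6 on day 3 (36.1%) and 4 of 5 on day 14 (41%). Against T cells it had 5 of 7 (31.1%), 9 of 10 (38.2%), 5 of 5 (33.2%) and 3 of 3 (30.4%) on the same days. Restricted to cells of exactly 1 gate, the total against B cells was 13 of 21, in place of 21 of 26, and the log2 ratio of myeloid to B cells was below 0 for DMBT1 (-0.83 and -1.18 on days 0 and 1), SLPI (-1.61 on day 0) and REG3G (-0.73 on day 1). Ratios of these genes to T cells also turned. LYZ was higher in myeloid than in B cells on all 4 days, by 33.2-fold, 29.7-fold, 38.2-fold and 225-fold.

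The other genes of the same defence pathways were counted by group. In the epithelial gate from day 0 to day 1, 8 of 12 genes of the group of inducing signals were past 2-fold and higher, with none lower. This group, called inducers below, also holds cytokine receptors and the inhibitor NFKBIA. The background was 14.5% of all genes past 2-fold in either direction, and the median log2 ratio was 1.3 against 0.0322. NFKBIZ, a nuclear inducer of antimicrobial genes, was 2.78, 5.81, 1.04 and 2.44 on days 0, 1, 3 and 7. IRF1, an interferon-response factor, was 0.476, 1.57, 0.501 and 0.826. Both were highest on day 1, as was NFKBIA, the inhibitor of NF-kB, with 2.23, 3.98, 1.09 and 2.42.

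Other antimicrobial proteins did not move as 1 group in epithelial cells, of which 22 of the 25 listed are in the files, with 6 higher and 4 lower of 15 from day 0 to day 1 and a median of 0.0549, against 14.5% of all genes and their median of 0.0322. From day 1 to day 3, 5 were higher and 2 lower of 12, against 35.5%, with a median of 0.824 against 0.201. REG4, a lectin of enteroendocrine and goblet cells, was 20.1, 6.77, 44.8 and 6.04 on days 0, 1, 3 and 7. RETNLB, a goblet cell protein, was 6.05, 2.63, 31.1 and 0.0166. Both were highest on day 3, when REG3G was low. PI3, a protease inhibitor related to SLPI, was 0.206, 1.09, 3.39 and 1.22, and BPI, which binds endotoxin, 0.794, 0.390, 0.712 and 0. From day 3 to day 7, 1 of 9 antimicrobial genes was higher and 7 lower, against 31% of all genes, with a median of -2.89 against 0.117. Goblet markers in the gate went from 102 to 10.1 at the same step, and goblet cells from 25 of 103 to 1 of 256, and their part in this count was not tested.

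From day 0 to day 1 in the epithelial gate, 4 of 12 genes of oxidant making, 3 of 19 of oxidant removal and 4 of 12 sensors were higher, and none of these was lower past 2-fold. Against 14.5% of all genes, the count for oxidant removal was at the background. CYBA, the membrane partner of CYBB, was 2.45, 2.53, 4.12 and 9.19 over days 0, 1, 3 and 7, and RAC1 2.83, 4.67, 2.24 and 3.29. TXN, a thioredoxin, was 7.43, 12.5, 7.81 and 9.49. TLR2, a receptor for bacterial lipoproteins, was 0.0550, 0.379, 0.0702 and 0.548, high on the days when REG3G was high. From day 1 to day 3 the inducers were higher in 2 and lower in 6 of 11, the sensors lower in 2 of 9, oxidant removal higher in 1 and lower in 6 of 19, and oxidant making higher in 4 and lower in 2 of 12, against 35.5% of all genes, so that the sensors and oxidant removal were near or below the background. From day 3 to day 7 the counts of higher and lower were 3 and 0 of 8 inducers, 2 and 0 of 6 sensors, 2 and 1 of 19 removal genes and 5 and 1 of 9 genes of oxidant making, against 31% of all genes.

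In the myeloid gate the inducers were higher in 7 of 10 from day 0 to day 1, with none lower, and lower in 5 of 9 from day 1 to day 3, against 20.3% and 31.5% of all genes. Neutrophil and monocyte markers in the gate were 0.662, 48.7 and 1.30 on days 0, 1 and 3, with 3, 237 and 3 S100 cells, and 30.9% of the myeloid barcodes of day 0 also passed the epithelial gate. The part of both in these groups and in the genes that follow was not tested. The other groups at the first step were higher in 6 and lower in 1 of 12 (oxidant making), 5 and 1 of 19 (removal), 5 and 2 of 12 (sensors) and 7 and 6 of 16 (antimicrobial proteins), against the same 20.3% of all genes. IL1B, an inflammatory cytokine, was 0.198, 8.15, 0.421 and 0.994 on days 0, 1, 3 and 14, and SOD2, which converts superoxide, 1.07, 10.9, 1.69 and 1.13. These 2 genes were highest on day 1, as LCN2 was. NLRP3, an inflammasome sensor, was 0.267, 1.14, 0.488 and 0.574. The oxidase partners CYBA (7.71, 12.01, 12.2 and 16.6) and NCF4 (0.948, 2.15, 1.45 and 2.14) did not fall to their day 0 level on day 3. In B cells CYBA stayed between 3.81 and 5.61 and RAC2 between 6.27 and 11.09 over the 6 ages.

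The genes most like each member were ranked by Pearson correlation of log2(level + 0.1) over 20 combinations of gate and age with at least 50 cells, among 14672 genes. The points share libraries and cells, so the correlations are descriptions. For REG3G the first was LOC100520832, with r of 0.976. This gene lies on the same chromosome, at chr3:64792665-64795666, 51962 bases before REG3G. Its epithelial level was 0.0749, 19.4, 0.321 and 52.0 on days 0, 1, 3 and 7, and 286 in the 36 cells of day 14, so it followed the order of REG3G. A gene between them, LOC100624628 at chr3:64839426-64841924, 5704 bases before REG3G, was the first for DUOX2 with 0.931 and the third for DUOXA2 with 0.889. It had 4, 316, 0, 17 and 216 epithelial UMIs on days 0, 1, 3, 7 and 14. Whether these neighbours are near copies of REG3G whose reads could be split was not tested.

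The likenesses of DUOX2, DUOXA2 and NOD2 rested on few UMIs. Their log2(level + 0.1) spanned only 0.38, 0.49 and 0.53 over the 20 points, as their levels lay below the added 0.1. SLPI was most like PLPP2 and LOC100737183 (both 0.995) and CPS1 (0.994), and DMBT1 most like APOBEC1 (0.975), RHBDF1 (0.970) and MICALL2 (0.967). REG3G was next most like SMPDL3B (0.927) and LOC100520273 (0.922). LYZ was most like CXCR2, a chemokine receptor of neutrophils, with 0.969, followed by LOC100524999 (0.968) and LOC100514951 (0.957). For NOD2 they were LOC110257199 (0.980), MS4A7 (0.968) and NLRP12 (0.965). CYBB was most like BASP1 (0.938), RASGRP3 (0.934) and FCGR2B (0.930), the last an Fc receptor of B cells. DUOX2 had 0.886 with DUOXA2 and 0.851 with RTP3, and DUOXA2 had 0.897 with TRIM10 and 0.893 with CBR1. NOS2 had 0.953 with TRPV5, 0.946 with SLC19A3 and 0.944 with PLPP4. LCN2 had the lowest first likeness, 0.870 with CCL21, then 0.867 with LOC110258710 and 0.866 with SERPINB2.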

How the data were processed

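The authors deposited unfiltered matrices of UMI counts per gene and barcode for 6 libraries, 1 per age. The submitters' processing notes name Cell Ranger 3.1.0, STAR and the pig build susScr11 (Sscrofa11.1). The labels name a V3 kit and the study's methods an earlier one. The fixed number of cells that the study forced per library was not used here. Total UMIs per library were 77391932 to 100348769. Cells needed at least 1000 UMIs and 500 genes, doublets were kept, and a cell could pass several gates.

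Levels are summed counts per 10000 UMIs with exact Poisson 95% intervals, and shares of cells have exact Clopper-Pearson intervals. A gene at 0 was put at 3 UMIs for a bound. Thinning drew 1000 UMIs per cell. Ratios used all genes with at least 10 UMIs over both sides, and the ratio script was tested on simulated data. Likeness used log2(level + 0.1) over genes with at least 100 UMIs, and the 3 most like genes per member were named. For each pathway group, at most 4 genes with the most UMIs in the gate were named. Gene positions came from the RefSeq table of Sscrofa11.1. Software was Python 3.11.15, numpy 2.4.6, scipy 1.17.1, pandas 2.3.3, matplotlib 3.10.9, R 4.3.3 and edgeR 4.0.16, the last for TMM factors only. No test between ages was run because each age has 1 library. The genes, lists, gates and comparisons were chosen with earlier results of these data known. The split of cells of no gate by subset markers and the look at genes next to REG3G were chosen after values were seen.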

Additional observations from a re-analysis of the deposited data

Results flagged for a closer look

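DMBT1 moved in opposite directions from day 7 to day 14 in the lymphocyte gates. The log2 ratio was -1.23 in the B gate (263 UMIs on day 14 and 384 on day 7) and 2.52 in the T gate (17 and 4 UMIs). The difference between the gates was not tested, since each age has 1 library. The 17 UMIs of the T gate lay in 2 cells. Most of the B gate's DMBT1 UMIs lay in barcodes that passed another gate as well. Counting only cells of exactly 1 gate, the B gate had 26 UMIs on day 14 and 113 on day 7, and the T gate 1 and 4, so both levels were then lower on day 14 (0.00319 against 0.0224 in B cells and 0.00651 against 0.0138 in T cells).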

How the results depend on the processing

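The 304 ratios of the 10 genes gave 2731 values under alternatives. Changes of sign were counted only for ratios that were past 2-fold in the report. There were 18. None came under TMM scaling, other cell filters (500 UMIs and 200 genes, or 2000 and 1000), the mitochondrial filter or other UMI minimums. TMM factors moved the median log2 ratio of all genes by -0.48 (epithelial against B, day 1) to 0.15. The summed counts past 2-fold moved in 8 cases. With cells of exactly 1 gate, T ages gave 12 of 22 (22 of 27 in the report) and myeloid against B 13 of 21 (21 of 26). With doubled gate thresholds, which left 3 days, myeloid against B gave 12. Thinned to 1000 UMIs, the counts were 11 of 14 for epithelial ages (19 of 22), 8 of 12 for myeloid ages (14 of 17), 8 of 14 for T ages, 12 of 15 for myeloid against B and 13 of 16 for myeloid against T (22 of 25). Fewer cells or genes were compared there by construction. Single ratios also shifted, sign changes aside. Shifts were marked in 152 of 220 ratios when thinned and in 137 of 304 as a mean over cells. In cells of exactly 1 gate it was 113 of 283, with doubled thresholds 80 of 280 and under TMM scaling 38 of 304. Of 203 levels, 47 were marked higher and 43 lower when thinned, and 33 and 42 as a mean over cells. In cells of exactly 1 gate 6 were higher and 50 lower. The sizes of folds and levels thus depend on these settings. The sign changes were as follows. In cells of exactly 1 gate, CYBB in T cells from day 7 to 14 was -0.28, DMBT1 myeloid against B was -0.83 and -1.18 and against T -0.39 and -0.43 on days 0 and 1, REG3G myeloid against B was -0.73 on day 1 and 0.90 on day 14 and against T -1.0 on day 1, and SLPI was -1.61 against B and -1.88 against T on day 0. With doubled thresholds, REG3G on day 1 was -0.13 against B and -1.58 against T, and NOS2 epithelial against myeloid on day 0 was -0.26. As a mean over cells, myeloid DMBT1 from day 0 to 1 was -0.53 and DUOX2 in T cells from day 1 to 3 was 0.81. After thinning, myeloid DMBT1 from day 0 to 1 was -0.13 and CYBB in T cells was -0.23 to day 14 and 0.16 to day 21. Apart from the settings built to drop shared barcodes, the cause was not tested. No paired analysis was possible because each age has 1 library.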

Other observations

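Cells that passed no gate held a further S100 population. On day 1, 329 such cells had at least 5 UMIs of S100A8, S100A9 and S100A12, and their LYZ level was 18.9 (157 cells with a UMI), near the 20.7 of the gated S100 cells. They held 162 LCN2 UMIs in 66 cells, at 1.68, and 13 NOD2 UMIs. On day 14, 30 such cells had a LYZ level of 69.2 (24 cells) and an LCN2 level of 1.69 from 18 UMIs. Of all LYZ UMIs of day 14, 58.4% lay in cells of no gate. Their median depth on day 1 was below that of the gated S100 cells (6605 UMIs).

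SLPI was also found in the gated S100 cells of day 1, in 71 of 237 cells at a level of 1.44, against 0.0297 in the macrophages of the same library. The S100 cells of no gate had 0.549 (25 of 329 cells) and free RNA 1.36, and the whole myeloid gate had 1.55, or 0.296 in cells of exactly 1 gate.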
